A study of Drosophila melanogaster with 18 samples.

Results

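The Eig71E genes are the ecdysone-induced genes of the 71E puff on the left arm of chromosome 3 of Drosophila melanogaster. The cluster described here consists of the 10 genes Eig71Ea to Eig71Ej, chosen by their FlyBase symbols among the 17562 genes of a table of raw read counts. Steroid pulses of 20-hydroxyecdysone time the moults and metamorphosis of the fly. At the end of the third larval instar the hormone, bound to its receptor, first induces a small set of early regulators, among them the transcription factors Broad and Eip74EF, which then switch on late genes in the salivary gland. The small Eig71E genes are textbook late genes of this kind. They are arranged in divergent pairs and encode short secreted peptides, while the longer Eig71Ee encodes a mucin-like protein that is made in the intermoult salivary gland and is known as a component of the haemolymph clot.

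The study asked what the loss of a single gene of U1 snRNA, the RNA of the spliceosome particle that recognises 5′ splice sites, does to gene expression. Total RNA depleted of rRNA was sequenced from whole larvae of the third instar in 18 libraries, 3 in each of 6 groups. The paper itself calls the sequencing mRNA-seq and describes no depletion of rRNA, so how the RNA was selected is not settled here. The groups were 21D.del, 82Eb.del, 95Ca.del, 95Cb.del and 95Cc.del, each homozygous for a CRISPR/Cas9 deletion that took out the promoter, transcript and terminator of the U1 gene in its name, and WT, a w1118 isogenic strain. The deletions were made in embryos of a nanos-Cas9 strain, which expresses Cas9 in the germ line, and the resulting lines were then crossed to the WT strain over several generations. Every deletion strain keeps the other 4 U1 genes. Neither the sex of the larvae nor their time within the third instar is stated in the labels, and RNA of the whole animal mixes salivary gland with every other tissue. The 3 replicates of a group are not stated to be separate cultures, so p-values below measure the spread between these libraries, which may be technical.

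Total counts per library lay between 11919121 and 21776613. The deleted U1 gene had 0 counts in all 3 libraries of 21D.del, 82Eb.del, 95Cb.del and 95Cc.del, while the library labelled 95Ca.del replicate 2 held 5 counts of 95Ca, and the U1 genes had few counts in every group (24 at most in a library), with 0 for some of them in WT libraries too. One library of each group stood apart from the other pair on the first principal component of the 500 most variable genes (52.1% of their variance). It was replicate 2 in 21D.del, 82Eb.del and WT, and replicate 1 in 95Ca.del, 95Cb.del and 95Cc.del. Glue gene transcripts, which mark the salivary gland, were abundant in every library, with summed levels of the 7 Sgs genes between 10751 and 32890 CPM (counts per 1000000 counts of the library).

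The 10 genes span 11.89 kb of chromosome arm 3L, from 15649126 to 15661015 in the dm6 coordinates of the table. Each is protein-coding and short. Eig71Ea (FBgn0004588, minus strand, 15649126 to 15649661) and Eig71Eb (FBgn0004589, plus strand, 15649936 to 15650541) form the first divergent pair, with 274 bp between them. Eig71Ec (FBgn0004590, minus strand, 15651479 to 15652254) and Eig71Ed (FBgn0004591, plus strand, 15652537 to 15653096) follow with 282 bp between them. Eig71Ee (FBgn0004592, minus strand, 15654472 to 15656010) stands alone in the middle and has 1486 bp of exons, against 403 to 639 bp for the others. Eig71Ef (FBgn0004593, minus strand, 15656655 to 15657390) and Eig71Eg (FBgn0004594, plus strand, 15657628 to 15658149) are 237 bp apart. Eig71Eh (FBgn0014848, minus strand, 15658936 to 15659441) and Eig71Ei (FBgn0014849, plus strand, 15659707 to 15660351) are 265 bp apart, and Eig71Ej (FBgn0014850, minus strand, 15660549 to 15661015) closes the row of members. Its divergent partner, Eig71Ek, lies 232 bp away and is not among the 10 genes. A further gene, CG43084 (FBgn0262530, plus strand, 15650852 to 15651392), lies inside the interval between Eig71Eb and Eig71Ec. Eig71Ea ends directly against CG43083, which is transcribed towards it, and CG43084 ends 86 bp from Eig71Ec, so that without the strand and multi-mapping settings of the counting, which are not given in the sources used here, reads at these borders, and reads shared by similar paralogs, could be assigned to either gene.

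**Figure D1:**
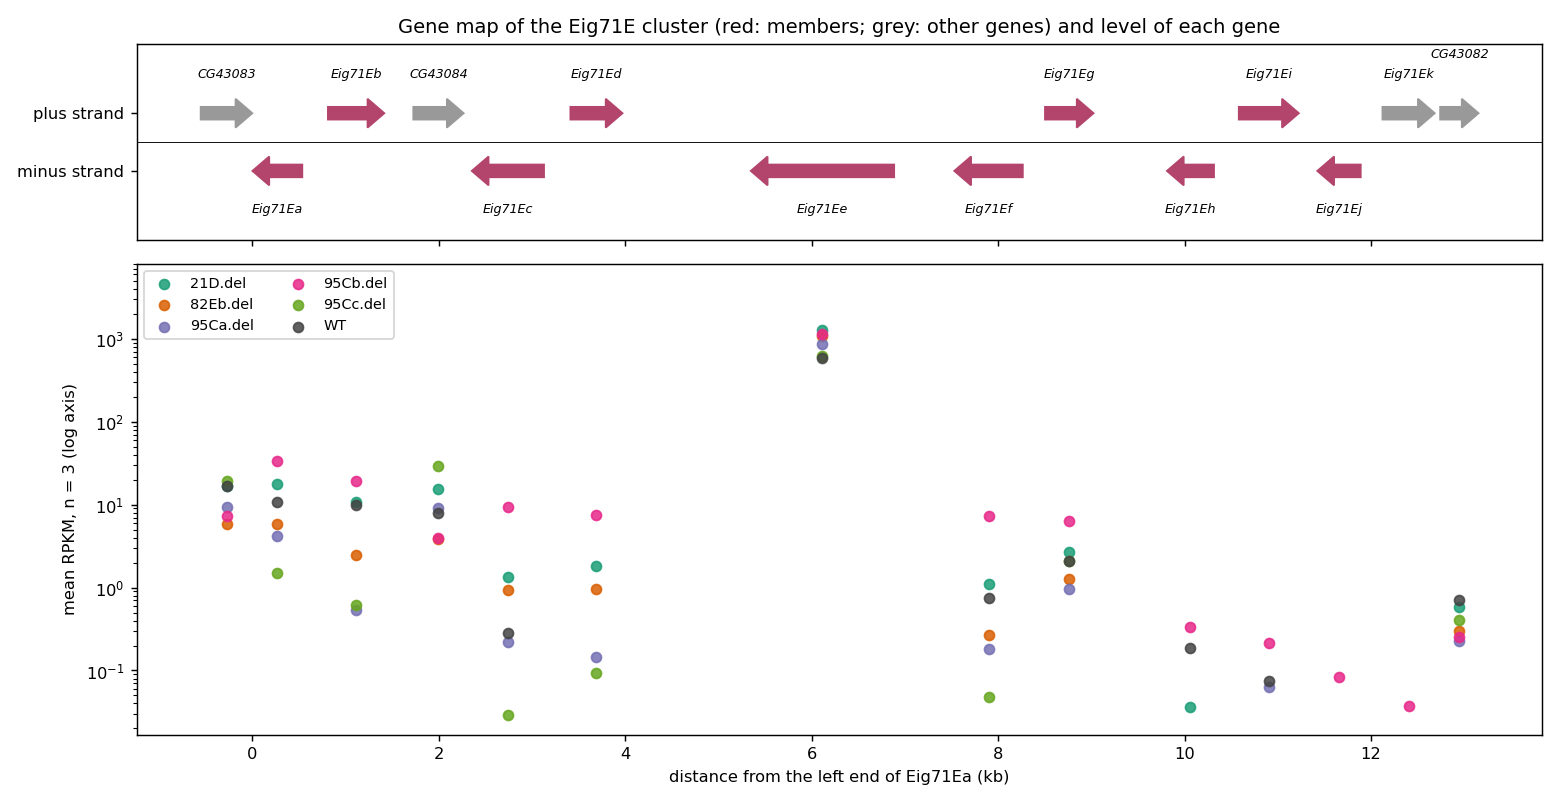
The upper panel maps the genes by distance from the left end of Eig71Ea in kb, with arrows in the direction of transcription, members in red and other genes in grey. The lower panel gives the mean RPKM of each gene (CPM divided by the exon length in kb, log axis) in the 6 groups (n = 3 each), with groups at 0 not drawn. Eig71Ee lies far above its neighbours in every group, and 95Cb.del is the highest group for the other members.

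Eig71Ee made up nearly the whole output of the cluster. It averaged 935 RPKM over the 18 libraries, against 12.3 RPKM for Eig71Ea, the next member, and took 97.1% to 99.9% of all counts of the 10 genes in each library. By mean CPM over all libraries it stood at percentile 99.6 of the genes in the table. The other 9 genes together reached between 1.29 and 42.4 CPM per library. Eig71Ea, Eig71Eb and Eig71Eg had counts in all 18 libraries, Eig71Ec in 16, Eig71Ef in 14 and Eig71Ed in 13. Eig71Eh (12 counts over the 18 libraries), Eig71Ei (9) and Eig71Ej (2) were at the edge of detection. Of these 3 genes 95Cb.del held 8, 5 and 2 counts, and none of them passed the filter on low counts in any comparison. Where a library read no count of a gene, the floor of 3 counts corresponds to 0.252 CPM at the lowest depth. This limit and the intervals given for count ratios and shares (95%, exact) cover counting error only.

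The 9 genes other than Eig71Ee differed far more between groups than Eig71Ee did. Their summed level averaged 15.6 ± 9.89 CPM in 21D.del, 5.19 ± 2.04 CPM in 82Eb.del, 2.68 ± 1.27 CPM in 95Ca.del, 38.1 ± 7.02 CPM in 95Cb.del and 1.83 ± 0.559 CPM in 95Cc.del, against 10.6 ± 4.08 CPM in the WT (SD, n = 3 each). The mean in 95Cb.del was 20.8 times that in 95Cc.del, while the highest group mean of Eig71Ee was 2.22 times its lowest. Each of the 6 genes Eig71Ea, Eig71Eb, Eig71Ec, Eig71Ed, Eig71Ef and Eig71Eg had its highest mean in 95Cb.del and its next highest in 21D.del. In whole larvae, fewer cells that express these genes and less RNA per cell cannot be told apart.

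**Figure D2:**
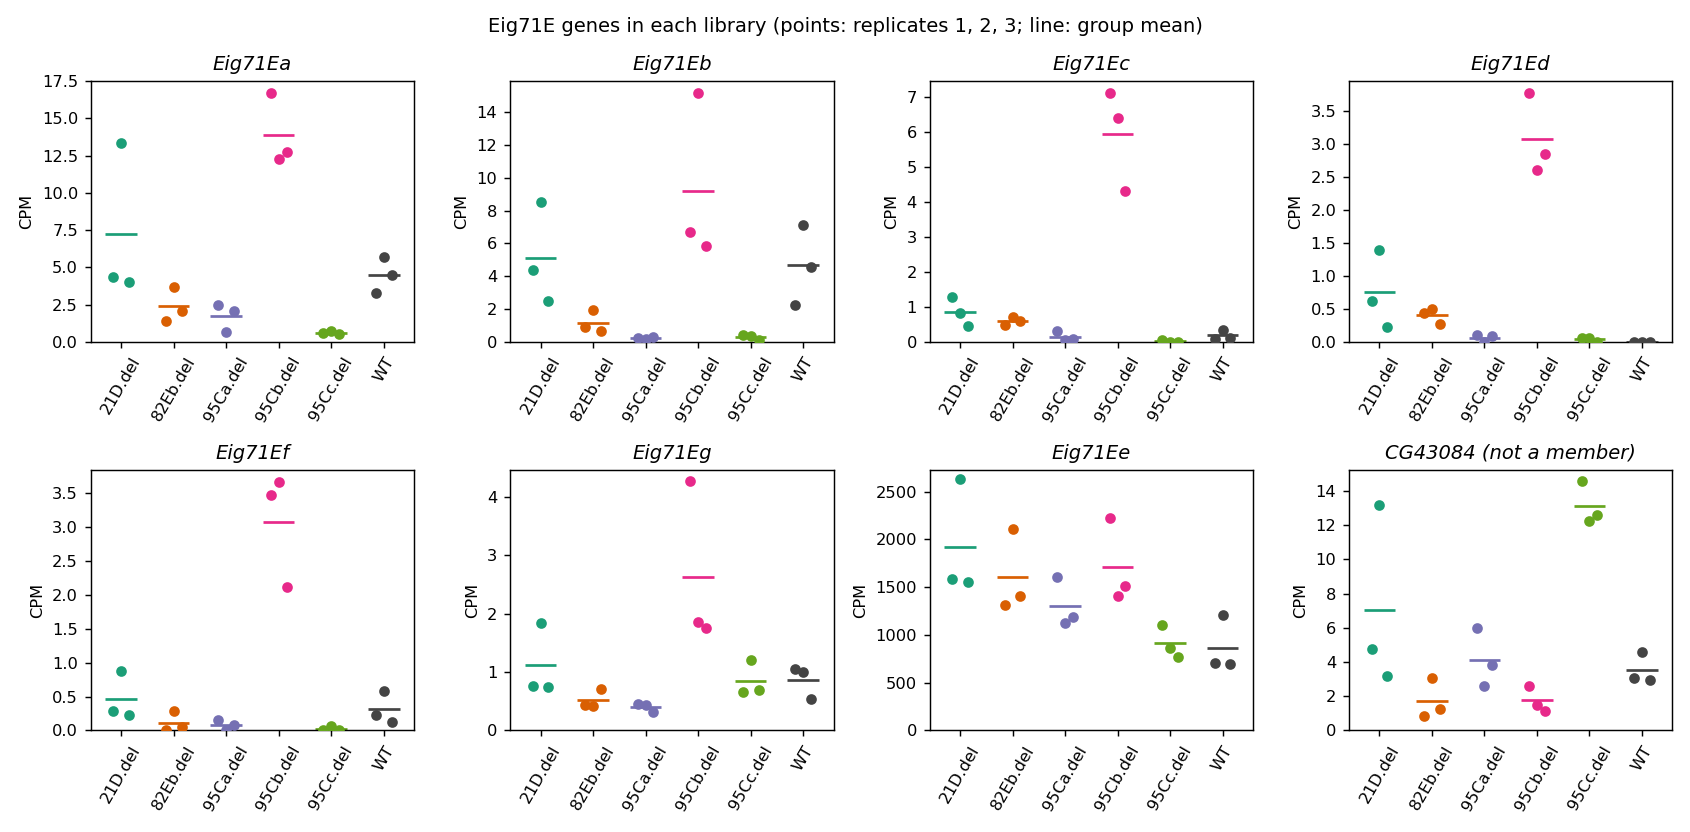
Each panel plots one gene in CPM (linear axis from 0) for the 5 deletion strains and the WT at the right, with a point for each of the 3 libraries and a line at the group mean. The 95Cb.del libraries are the highest for Eig71Ec, Eig71Ed and Eig71Ef without overlap, the 95Cc.del libraries lie near 0 for most members, and CG43084 is highest on average in 95Cc.del.

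Each strain was tested against the WT separately, by the quasi-likelihood test of edgeR, to learn which members changed with the loss of each U1 gene. A gene was called where its absolute log2 fold change was above 1 and its adjusted p (Benjamini-Hochberg over all genes of the fit) below 0.05. The 5 comparisons share the 3 WT libraries.

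In 95Cb.del, 4 members were called higher and 0 lower, where 1.43% of all tested genes were called higher and 5.96% lower. They were Eig71Ea, Eig71Ec, Eig71Ed and Eig71Ef, small secreted peptide genes from 3 divergent pairs. Of the 10 members 7 were tested, and Eig71Ec, Eig71Ed and Eig71Ef passed the filter on low counts only through their high counts in 95Cb.del, so their number adds no support. The other 4 tested members had log2 fold changes between 0.95 and 1.59. Over the 13 alternative settings, the 4 calls held in all but the fit with the replicate number as a block.

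Eig71Ec, a member of the second divergent pair, had few counts in the WT. Its counts were 143, 127 and 59 in the 95Cb.del libraries, against 2, 4 and 2 in the WT, and 7.09, 6.38 and 4.3 CPM against 0.0918, 0.336 and 0.119 CPM. Every 95Cb.del library was thus above every WT library. The log2 fold change was 5.06 (SE 0.40, edgeR adjusted p = 0.000682), and the ratio of the summed counts was 38.6 (19.3 to 90.1).

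Eig71Ed, the divergent partner of Eig71Ec, had 76, 52 and 39 counts in 95Cb.del (3.77, 2.61 and 2.84 CPM) and 0 counts in all 3 WT libraries. The 95Cb.del level was at least 52.2-fold higher, taking 3 counts over the WT group as the floor (edgeR adjusted p = 0.00223). Eig71Ef had 70, 73 and 29 counts in 95Cb.del (3.47, 3.67 and 2.11 CPM), against 5, 7 and 2 in the WT (0.23, 0.587 and 0.119 CPM). These ranges did not overlap either, and the log2 fold change was 3.34 (SE 0.46, edgeR adjusted p = 0.00661).

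Eig71Ea, a more abundant member, was at 16.7, 12.3 and 12.8 CPM in the 95Cb.del libraries, against 3.31, 5.71 and 4.47 CPM in the WT. The 2 ranges did not overlap, and the log2 fold change was 1.59 (SE 0.21, edgeR adjusted p = 0.00566). Its partner Eig71Eb was at 6.69, 15.2 and 5.83 CPM in 95Cb.del and at 2.25, 7.13 and 4.59 CPM in the WT. Here replicate 2 was the high library in both groups, the ranges overlapped, and the log2 fold change of 1.0 was not called (SE 0.48, edgeR adjusted p = 0.243). Without the library highest on the first principal component in each group it was called, at 1.56 (edgeR adjusted p = 0.0451). Eig71Eg was at 4.26, 1.86 and 1.75 CPM in 95Cb.del, against 1.06, 1.01 and 0.537 CPM in the WT. All 3 strain libraries were above the WT range, but replicate 1 was more than 2 times the other pair, and the log2 fold change of 1.51 was not called (SE 0.42, edgeR adjusted p = 0.0729). It was called by DESeq2, at 1.58 (adjusted p = 0.0299), and in one edgeR fit over all 18 libraries, at 1.55 (adjusted p = 0.0278).

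In 95Cc.del the first divergent pair was low. Of the 4 tested members, 2 were called lower and 0 higher, where 2.73% of all tested genes were called lower and 2.07% higher. Eig71Ea was at 0.604, 0.728 and 0.501 CPM in 95Cc.del (11, 12 and 8 counts), against 3.31, 5.71 and 4.47 CPM in the WT (72, 68 and 75 counts). All 95Cc.del libraries were below the WT range, and the log2 fold change was -2.81 (SE 0.25, edgeR adjusted p = 0.00183). Eig71Eb was at 0.385, 0.364 and 0.125 CPM in 95Cc.del (7, 6 and 2 counts), against 2.25, 7.13 and 4.59 CPM in the WT (49, 85 and 77 counts). The groups were again apart, with a log2 fold change of -3.86 (SE 0.50, edgeR adjusted p = 0.00647). Both called genes passed the filter through their WT counts, so their number adds no support.

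Of the members under the filter, Eig71Ec and Eig71Ef had fewer counts in 95Cc.del than in the WT, and Eig71Ed had 2 counts in 95Cc.del, against 0 in the WT. Eig71Ec had 1 count in 95Cc.del over 3 libraries, against 8 in the WT, a ratio of 0.125 (0.00281 to 0.929), and Eig71Ef had 1 count in 95Cc.del, against 14 in the WT, a ratio of 0.0712 (0.00168 to 0.468). Eig71Eg did not share this pattern. It was at 0.659, 1.21 and 0.689 CPM in 95Cc.del and at 1.06, 1.01 and 0.537 CPM in the WT, overlapping ranges with a log2 fold change of -0.01 (SE 0.39, edgeR adjusted p = 0.997).

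In 95Ca.del, Eig71Eb was called lower and no member higher, 1 of 3 tested, where 2.51% of all tested genes were called lower and 0.241% higher. All 3 tested members had an unadjusted p below 0.05 (edgeR), with Eig71Eb and Eig71Ea lower and Eig71Ee higher than in the WT. Eig71Eb had 5, 4 and 4 counts in 95Ca.del (0.249, 0.192 and 0.32 CPM), against 49, 85 and 77 in the WT (2.25, 7.13 and 4.59 CPM). All 3 strain libraries lay below the WT range, with a log2 fold change of -4.08 (SE 0.48, edgeR adjusted p = 0.00575). Eig71Eb passed the filter through its WT counts, so the count of 1 call adds no support. Its partner Eig71Ea was at 2.44, 0.623 and 2.08 CPM in 95Ca.del, also below every WT library, but the log2 fold change of -1.35 was not called (SE 0.44, edgeR adjusted p = 0.227). The lowest of these 3 values is that of the library labelled 95Ca.del replicate 2, which held counts of the deleted gene. Leaving out any single library, this one included, ended no call of Eig71Eb. Eig71Eg, under the filter, had 22 counts in 95Ca.del and 44 in the WT, a ratio of 0.472 (0.269 to 0.804). Its 95Ca.del libraries were all below the WT range.

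In 82Eb.del, edgeR called 0 members higher and 0 lower of 4 tested (0.733% and 3.80% of all tested genes), 3 had an unadjusted p below 0.05, and DESeq2 called 1 higher and 1 lower. Eig71Eb was at 0.885, 1.96 and 0.655 CPM in 82Eb.del, against 2.25, 7.13 and 4.59 CPM in the WT, with every strain library below every WT library. Its log2 fold change was -1.96 (SE 0.47, edgeR adjusted p = 0.0742), and -1.94 with the replicate number as a block, where it was called (edgeR adjusted p = 0.00131). Without replicate 2, the library of both groups that stood apart, 2 members were called lower, Eig71Ea at -1.12 (edgeR adjusted p = 0.0142) and Eig71Eb at -2.08 (edgeR adjusted p = 0.00494). Calls over all genes rose there too, to 268 higher and 986 lower of 12447 tested. With all libraries they were 91 and 472 of 12423. Eig71Ec and Eig71Ed went the other way. Eig71Ec had 10, 10 and 11 counts in 82Eb.del, against 2, 4 and 2 in the WT, a ratio of 3.70 (1.66 to 9.30). Eig71Ed had 9, 7 and 5 counts in 82Eb.del and 0 in the WT, at least 6.68-fold higher. Both were under the filter of this comparison.

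In 21D.del, edgeR called 0 members higher and 0 lower of 4 tested (0.121% and 0.892% of all tested genes), 1 had an unadjusted p below 0.05, and DESeq2 called 2 higher. Replicate 2 stood apart for most small members: Eig71Ea was at 4.38, 13.3 and 4.01 CPM and Eig71Eb at 4.38, 8.54 and 2.49 CPM in 21D.del, against 3.31, 5.71 and 4.47 CPM and 2.25, 7.13 and 4.59 CPM in the WT. The ranges overlapped for both genes. Eig71Ec had 27, 11 and 8 counts in 21D.del, against 2, 4 and 2 in the WT, a ratio of 5.55 (2.59 to 13.6), and Eig71Ed had 13, 19 and 4 counts in 21D.del against 0 in the WT, at least 11.6-fold higher. So the pair of Eig71Ec and Eig71Ed, at or near 0 in the WT, had more counts in every library of 21D.del, 82Eb.del and 95Cb.del than in any WT library.

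**Figure D3:**
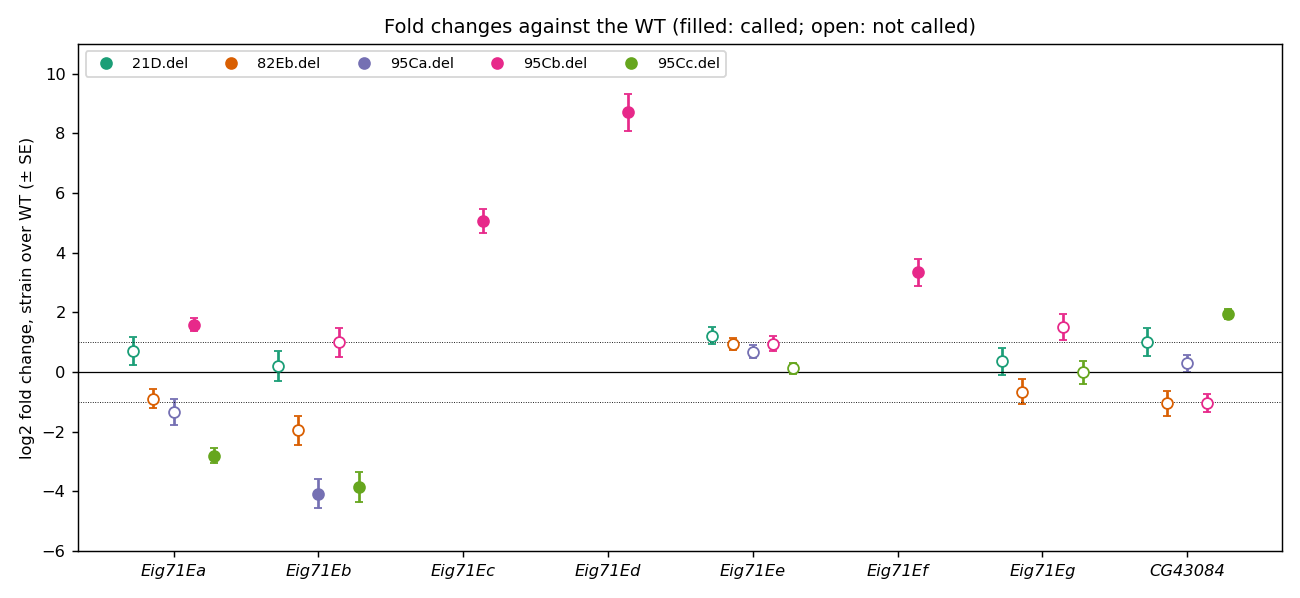
Log2 fold changes of each strain over the WT (± SE, edgeR) are drawn for the members that passed the filter and for CG43084, with filled points where a gene was called and dotted lines at -1 and 1. In 95Cb.del the tested members lie between 0.95 and 8.70 (the value of Eig71Ed, whose WT libraries are all at 0, is no bound), in 95Cc.del the first pair lies at -2.81 and -3.86 with CG43084 at 1.94.

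Eig71Ee, the mucin-like gene, followed another order. Its level was 1588, 2633 and 1549 CPM in 21D.del, 1309, 2110 and 1405 CPM in 82Eb.del, 1604, 1124 and 1193 CPM in 95Ca.del, 2229, 1403 and 1517 CPM in 95Cb.del and 1101, 864 and 772 CPM in 95Cc.del, against 708, 1205 and 692 CPM in the WT. All libraries of 21D.del, 82Eb.del and 95Cb.del were above the WT range, and those of 95Ca.del and 95Cc.del overlapped it. No strain passed the test: the log2 fold change was 1.22 in 21D.del (SE 0.30, edgeR adjusted p = 0.186), 0.94 in 82Eb.del (SE 0.21, edgeR adjusted p = 0.0632), 0.69 in 95Ca.del (SE 0.23, edgeR adjusted p = 0.251), 0.95 in 95Cb.del (SE 0.25, edgeR adjusted p = 0.0569) and 0.13 in 95Cc.del (SE 0.19, edgeR adjusted p = 0.792). With the replicate number as a block the 21D.del value was 1.22 and called (edgeR adjusted p = 0.0219). It was called as well without replicate 2 of both groups, at 1.21 (edgeR adjusted p = 0.00945). In 82Eb.del only the fold threshold was missed in the same 2 settings. Eig71Ee was there at 0.94 with the block (edgeR adjusted p = 4.81e-05) and at 0.98 without replicate 2 (edgeR adjusted p = 2.54e-05). In 95Cb.del it was called without WT replicate 2, at 1.11 (edgeR adjusted p = 0.0277), with replicates 1 and 3 only, at 1.23 (edgeR adjusted p = 0.0329), and by DESeq2, at 1.01 (adjusted p = 0.00395).

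Within the groups, Eig71Ee moved with the library that stood apart. In 6 of 6 groups the library highest on the first principal component had the most Eig71Ee, between 1.35 and 1.72 times the mean of the other pair, and for the sum of the other 9 members this held in 5 of 6 groups. The same library had the lowest summed level of 5 midgut enzyme genes (Jon65Aiii, Jon99Ciii, Amy-p, alphaTry and betaTry) in 6 of 6 groups, the highest summed level of the larval serum and fat body genes in 5 of 6 and the lowest sum of the glue genes in 4 of 6. The midgut sum lay between 82.6 and 2631 CPM in 21D.del, 430 and 2356 CPM in 82Eb.del, 305 and 1556 CPM in 95Ca.del, 1041 and 2242 CPM in 95Cb.del and 804 and 1600 CPM in 95Cc.del, against 1209 and 6991 CPM in the WT, and no midgut marker was at 0 in any group. The part of these differences in the levels of the cluster was not tested.

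**Figure D4:**
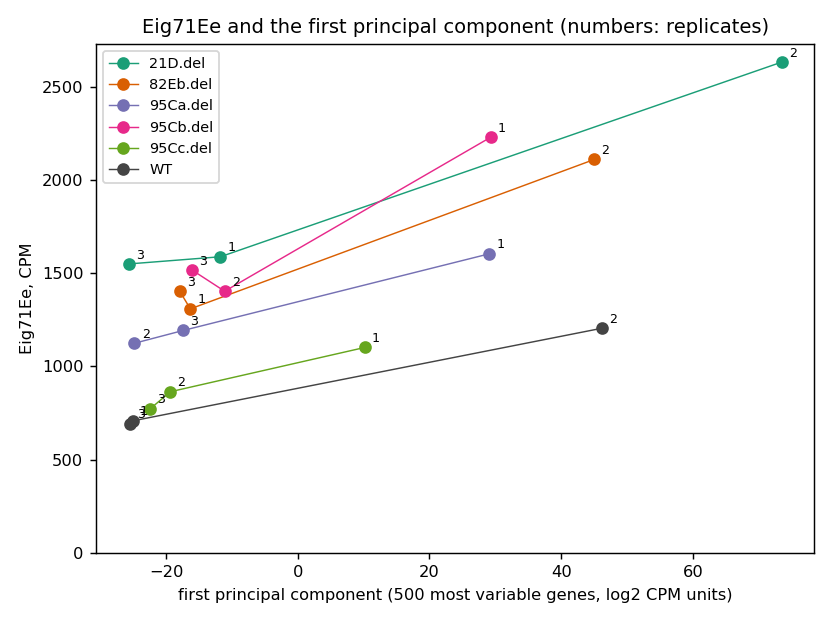
Eig71Ee in CPM is plotted against the first principal component of the 500 most variable genes, with one line for each group and the replicate number beside each library. In all 6 groups the library at the right has the highest Eig71Ee. All libraries of 21D.del, 82Eb.del and 95Cb.del lie above every WT library, and those of 95Ca.del and 95Cc.del overlap the WT range.

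The strains were compared with each other in one fit over the 18 libraries, to see which of them differ beyond their spread. Each of the 10 strain pairs tested 7 members, and 36 of the 70 tests were called, where 4.37% of all tests of genes by pairs were. Eig71Ed and Eig71Ef passed the filter of this fit mainly through their high counts in 95Cb.del, so their calls in pairs with that strain add no support. The strains at the ends of the order, 95Cb.del and 95Cc.del, differed in 6 members (13.4% of all tested genes). This order was taken from the summed small members in these same libraries, so the calls between its ends add no support. Eig71Ea differed by 4.44 on the log2 scale (SE 0.49, edgeR adjusted p = 1.54e-05), Eig71Eb by 4.90 (SE 0.58, edgeR adjusted p = 3.28e-05) and Eig71Eg by 1.55 (SE 0.42, edgeR adjusted p = 0.0166). The low counts in 95Cc.del make the fitted values of the other 3 depend on the prior count, so ratios of summed counts are given. Eig71Ec had 329 counts in 95Cb.del and 1 in 95Cc.del, a ratio of 310 (55.2 to 12271). Eig71Ed had 167 counts in 95Cb.del and 2 in 95Cc.del, a ratio of 78.6 (21.4 to 654), and Eig71Ef had 172 in 95Cb.del and 1 in 95Cc.del, a ratio of 162 (28.7 to 6433). Eig71Ee differed by 0.86 (SE 0.21, edgeR adjusted p = 0.00995), under the fold threshold.

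Neighbours in the order of the summed small members, 95Cb.del, 21D.del, WT, 82Eb.del, 95Ca.del and 95Cc.del, differed in few members or none. The order rests on these same levels, which favours few calls between its neighbours. Between 21D.del and 95Cb.del, 3 members were called lower in 21D.del, Eig71Ec at -2.69, Eig71Ed at -2.03 and Eig71Ef at -2.72 (edgeR adjusted p = 0.00146, 0.0317 and 0.0194), where 3.36% of all tested genes were called in either direction. Between 82Eb.del and 95Ca.del edgeR called 0 of 7 (3 at an unadjusted p below 0.05, 0 by DESeq2, 0.848% of all tested genes), and between 95Ca.del and 95Cc.del 0 of 7 (3 at an unadjusted p below 0.05, 1 by DESeq2, 6.03% of all tested genes). The WT differed from its neighbours in this fit in 3 members for 21D.del and in 2 for 82Eb.del, where the separate fits called 0 in each. Over all 13096 genes this fit called 101 higher and 341 lower in 21D.del, against 15 and 111 in the separate fit. In 82Eb.del it called 125 and 589, against 91 and 472. Among strains further apart, 82Eb.del and 95Ca.del each differed from 95Cb.del in 6 members (1.24% and 1.21% of all tested genes), and 21D.del differed from 95Cc.del in 6 (6.17%), from 95Ca.del in 4 (1.50%) and from 82Eb.del in 1 (2.28%). The last pair, 82Eb.del and 95Cc.del, differed in 4 (7.57%). The number of calls over the 10 pairs was 11 without replicate 1, 35 without replicate 2 and 6 without replicate 3. Calls over all genes fell as well in each pair without replicate 1 or 3. Between 95Cb.del and 95Cc.del they went from 523 higher and 1238 lower in 95Cb.del to 222 and 404 without replicate 1. Without replicate 3 they were 180 and 282, and without replicate 2 they were 677 and 1451.

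The divergent partners did not keep one ratio. Eig71Ea took 57.7% of the summed counts of Eig71Ea and Eig71Eb in 21D.del, 67.2% in 82Eb.del, 87.1% in 95Ca.del (79.0% to 93.0%), 59.4% in 95Cb.del and 67.4% in 95Cc.del, against 50.5% in the WT (45.6% to 55.3%). The share in 95Ca.del lay between 76.5% and 90.7% in single libraries, above the WT libraries at 44.4% to 59.5%. Single 95Cb.del libraries were spread from 44.7% to 71.4%, so that their pooled share hides differences between replicates. Eig71Ef took 53.9% of the counts of Eig71Ef and Eig71Eg in 95Cb.del (48.3% to 59.5%) and 2.27% in 95Cc.del (0.0575% to 12%), against 24.1% in the WT (13.9% to 37.2%).

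Across the 18 libraries, the log2 CPM of the small members ran together. Pearson's r was 0.91 between Eig71Ea and Eig71Eb, 0.94 between Eig71Ec and Eig71Ed and 0.79 between Eig71Ef and Eig71Eg, and the 15 pairs of these 6 genes lay between 0.62 and 0.94. Among these 6 genes the divergent partner had the highest r for each but Eig71Ef, whose r was 0.91 with Eig71Ea and 0.87 with Eig71Ec. For Eig71Ea the lead was small, at 0.908 with Eig71Eb and 0.907 with Eig71Ef. The 6 pairs with Eig71Ee lay between 0.28 and 0.74. After the group means were taken out, the 15 pairs lay between -0.16 and 0.77. The divergent partner then had the highest r for none of the 6 genes. Pearson's r was 0.47 between Eig71Ea and Eig71Eb, 0.36 between Eig71Ec and Eig71Ed and 0.29 between Eig71Ef and Eig71Eg. The value of 0.77 was that of Eig71Ea and Eig71Ef. The points share libraries and their depth, and the low members are rounded by their few counts, so these values only describe the table.

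CG43084 lies among the small members and is transcribed towards Eig71Ec, and its order of groups was another. It was at 14.6, 12.3 and 12.6 CPM in 95Cc.del, against 3.08, 4.61 and 2.92 CPM in the WT. All 3 strain libraries were above the WT range, with a log2 fold change of 1.94 (SE 0.16, edgeR adjusted p = 0.00116), and it was called under all 13 alternatives. In 95Cb.del it was at 2.63, 1.51 and 1.17 CPM, all below the WT range, with a log2 fold change of -1.04 that was not called (SE 0.30, edgeR adjusted p = 0.0793). Between 95Cb.del and 95Cc.del it differed by -2.94 (SE 0.45, edgeR adjusted p = 0.000327), where Eig71Eb on its left differed by 4.90. Between 21D.del and 82Eb.del, CG43084 went in the direction of Eig71Eb. It differed by 2.06 (SE 0.45, edgeR adjusted p = 0.0185), and Eig71Eb by 2.17 (SE 0.49, edgeR adjusted p = 0.0242). CG43084 was at 4.76, 13.2 and 3.17 CPM in 21D.del and at 0.836, 3.09 and 1.26 CPM in 82Eb.del. Its left-hand counterpart CG43083, named after its values were seen, was called in no strain in its separate edgeR fit with the WT. Its log2 fold change was -1.21 in 95Cb.del (SE 0.30, edgeR adjusted p = 0.0534) and 0.28 in 95Cc.del (SE 0.28, edgeR adjusted p = 0.682). With the block it was called lower in 82Eb.del, at -1.50 (edgeR adjusted p = 0.00029, against 0.106 without), as was CG43084 at -1.12 (edgeR adjusted p = 0.0161, against 0.242 without). One fit over all 18 libraries also called CG43083 lower in 82Eb.del, at -1.50 (edgeR adjusted p = 0.0395), and DESeq2 called it lower in 82Eb.del and 95Cb.del, at -1.48 and -1.15. CG43084 in 95Cb.del was called without the library highest on the first principal component in each group, at -1.25 (edgeR adjusted p = 0.0241). To the right of Eig71Ej, Eig71Ek had 1 count and CG43082 had 38 counts over the 18 libraries, also named after their values were seen.

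**Figure D5:**
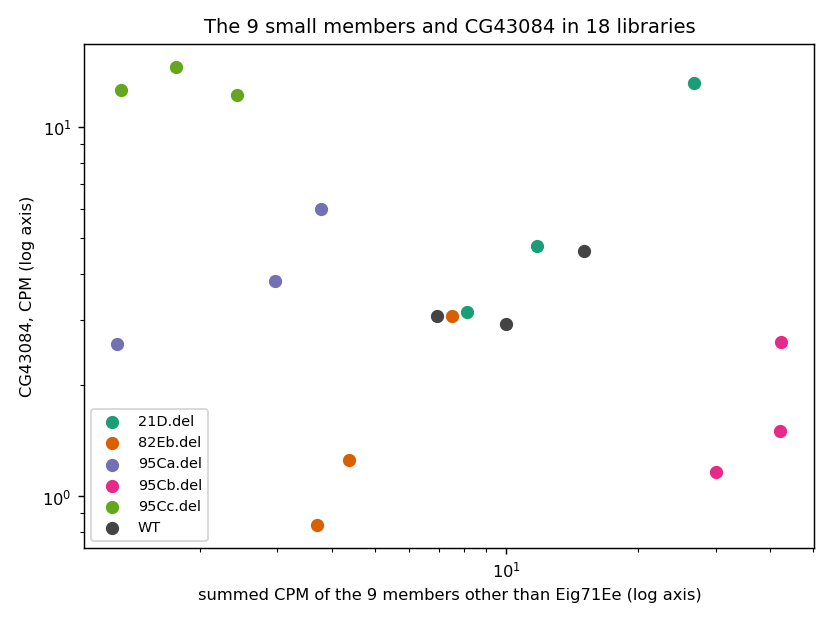
Each point is one of the 18 libraries, with the summed CPM of the 9 members other than Eig71Ee on the horizontal axis and CG43084 in CPM on the vertical axis (both log axes). The 95Cc.del libraries combine 1.32 to 2.43 CPM of the small members with 12.3 to 14.6 CPM of CG43084, and the 95Cb.del libraries combine 30.03 to 42.4 CPM with 1.17 to 2.63 CPM. Both are higher in 21D.del, at 8.14 to 26.8 CPM and 3.17 to 13.2 CPM. In 82Eb.del they lie at 3.69 to 7.51 CPM and 0.836 to 3.09 CPM.

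The rest of the ecdysone response was read from a list of 15 receptor and early regulator genes. In 95Cb.del 4 were called higher and 1 lower, where 1.43% of all tested genes were called higher and 5.96% lower. The 1 lower call is near that share. The median log2 fold change of the list was 0.52, beside -0.02 for all genes. The nuclear receptor gene Eip78C was at 169, 174 and 181 CPM in 95Cb.del, against 54, 75.7 and 61.6 CPM in the WT, a log2 fold change of 1.42 (SE 0.15, edgeR adjusted p = 0.00238). Blimp-1, an ecdysone-induced repressor that times ftz-f1, rose by 1.48 (SE 0.20, edgeR adjusted p = 0.00635), and Eip93F, a regulator of salivary gland death, by 1.31 (SE 0.30, edgeR adjusted p = 0.0418). Hr3, a nuclear receptor that activates ftz-f1, was higher by 2.37 (SE 0.41, edgeR adjusted p = 0.0155) at 5.55, 2.31 and 4.23 CPM in 95Cb.del, against 0.505, 0.755 and 0.954 CPM in the WT. It was named after its values were seen. The one gene called lower was ftz-f1, the competence factor of the prepupa, with a log2 fold change of -1.22 (SE 0.23, edgeR adjusted p = 0.0204).

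In 95Cc.del edgeR called 0 of the 15 (4 at an unadjusted p below 0.05), where 2.07% of all tested genes were called higher and 2.73% lower. The median of the 15 was -0.34. Their summed level was 2723 to 3285 CPM in 95Cc.del, below the 3599 to 4082 CPM of the WT. The textbook activators of the small Eig71E genes, br and Eip74EF, named after their values were seen, were called in no strain. br was at 2043, 3249 and 2933 CPM in 95Cb.del and 998, 1127 and 1231 CPM in 95Cc.del, against 1331, 1573 and 1636 CPM in the WT. Its log2 fold change was 0.82 in 95Cb.del (SE 0.29, edgeR adjusted p = 0.129) and -0.41 in 95Cc.del (SE 0.20, edgeR adjusted p = 0.324). In 21D.del br was at 0.73 (SE 0.29, edgeR adjusted p = 0.546) and Eip74EF at 0.46 (SE 0.30, edgeR adjusted p = 0.879). Eip74EF was at 0.34 in 82Eb.del (SE 0.33, edgeR adjusted p = 0.662), where Eig71Ea was at -0.90 and Eig71Eb at -1.96. In the other strains, Eip78C was called higher in 95Ca.del and Blimp-1 in 82Eb.del, and edgeR called 0 in 21D.del (6 at an unadjusted p below 0.05).

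Of 14 other ecdysone-induced genes 12 were in the table. In 95Cb.del 3 of 10 tested were called higher, the imaginal disc genes ImpE1 (1.37), ImpE2 (1.09) and ImpE3 (1.54), all log2 fold changes with edgeR adjusted p of at most 0.0177. Of all tested genes, 1.43% were called higher there. In 95Cc.del ImpE2 was called lower and no gene of the list higher, where 2.73% of all tested genes were called lower and 2.07% higher. ImpE2 was at 131, 128 and 123 CPM in 95Cc.del, against 243, 359 and 262 CPM in the WT, with a log2 fold change of -1.13 (SE 0.12, edgeR adjusted p = 0.00282). ImpE2 thus was called in the direction of the small Eig71E genes in both strains.

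The intermoult genes of the salivary gland gave the opposite picture in 95Cc.del. Of the list of ng1, ng2, ng3, ng4 and Pig1, which are active in the gland before the late hormone pulse, 4 were tested and 4 called higher in 95Cc.del, where 2.07% of all tested genes were called higher. ng1 was at 21.9, 26.4 and 26.4 CPM in 95Cc.del, against 4.13, 5.29 and 4.59 CPM in the WT, a log2 fold change of 2.45 (SE 0.17, edgeR adjusted p = 0.000631). ng2 (2.18), ng3 (1.99) and Pig1 (1.29) were called with edgeR adjusted p between 0.00357 and 0.0359. ng1 was called lower in 82Eb.del (-1.50, edgeR adjusted p = 0.011) and in 95Cb.del (-1.39, edgeR adjusted p = 0.017). The summed level of the list was 206 to 269 CPM in 95Cc.del and 38.6 to 57.7 CPM in 95Cb.del, against 57.2 to 71.9 CPM in the WT. In 21D.del, where the small members were next highest after 95Cb.del, the sum was also above the WT range, at 96.1 to 171 CPM. edgeR called 0 of 4 there (2 at an unadjusted p below 0.05, median log2 fold change 1.41). The sum was 47.1 to 60.1 CPM in 82Eb.del and 67.9 to 98.0 CPM in 95Ca.del.

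The glue genes themselves, whose products make up the secretion that fixes the puparium to its substrate, were called rarely. Sgs8 was called higher in 95Cb.del (log2 fold change 1.30, edgeR adjusted p = 0.0335) and Sgs4 in 82Eb.del (1.12, edgeR adjusted p = 0.0468). In 95Cc.del edgeR called 0 of 7 (4 at an unadjusted p below 0.05, median -0.53), with a summed level of 11361 to 14337 CPM in 95Cc.del, against 13835 to 21126 CPM in the WT. None of the 7 was at 0 in any group. In 95Cb.del the sum was 27134 to 28336 CPM.

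Other tissues were read from marker lists. edgeR called 0 of 6 larval serum and fat body genes in every strain (at most 2 at an unadjusted p below 0.05), with Fbp1 at 33808 to 56227 CPM in 95Cb.del and 11906 to 13938 CPM in 95Cc.del, against 19712 to 21599 CPM in the WT. It also called 0 of 6 tested cell death genes (at most 2 unadjusted) and 0 of 4 neuron markers (at most 1 unadjusted) in every strain. Of 8 haemocyte and clot genes, PPO1, a prophenoloxidase of crystal cells, was called lower in all 5 strains (log2 fold changes between -3.68 and -2.01), and NimC1 higher in 82Eb.del (1.03). Of 3 muscle markers, Mhc (1.67) and Act57B (1.28) were called higher in 95Cc.del, and the muscle sum was 28604 to 36824 CPM in 95Cc.del and 8820 to 10704 CPM in 95Cb.del, against 8591 to 16032 CPM in the WT. Of 5 midgut markers, alphaTry was called lower in 95Cc.del (-3.43), and the median log2 fold change of the list lay between -2.60 and -1.64 in the 5 strains, mostly uncalled. The part of tissue composition in the levels of the Eig71E genes was not tested.

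Of the 13089 other genes that passed the filter over the 6 groups, those most like the mean log2 CPM of the 9 members other than Eig71Ee were CG34244 (Pearson's r 0.93 over 18 libraries), CG42269 (0.90), Atet, an ABC transporter gene (0.88), CG42713 (0.88) and CG2070 (0.88). CG34244 averaged 71.9 ± 16.1 CPM in 95Cb.del and 9.62 ± 2.11 CPM in 95Cc.del, against 25.6 ± 8.69 CPM in the WT (SD, n = 3 each), and it was called higher in 95Cb.del and lower in 95Cc.del and 82Eb.del. CG42713 averaged 4.91 ± 2.14 CPM in 95Cb.del and had 0 counts in all 95Cc.del libraries, against 0.295 ± 0.223 CPM in the WT. The genes most like Eig71Ee were Drip, an aquaporin gene (0.96), CG10444 (0.94), tyn, which encodes a zona pellucida domain protein (0.91), kon, a transmembrane protein gene (0.90), and CG14855 (0.90). Drip averaged 61.4 ± 21.2 CPM in 21D.del, 52.2 ± 12.2 CPM in 82Eb.del and 38.0 ± 6.69 CPM in 95Cc.del, against 33.0 ± 7.60 CPM in the WT. These genes were picked for their likeness, and nothing further is read from it.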

How the data were processed

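The deposited values are raw counts per gene, which the authors obtained from strand-specific libraries by trimming reads with Trimmomatic, aligning to dm6 with HISAT2 and assigning alignments to genes with featureCounts. The submitters' processing notes name cutadapt 1.15 and Trimmomatic 0.39. The annotation release and the strand and multi-mapping settings are not given in the sources used here. Symbols were taken by FlyBase ID from an annotation (Ensembl 115) in which 17421 of 17562 genes had the coordinates of the table.

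CPM used library totals (11919121 to 21776613) and RPKM the annotated exon length. edgeR 4.0.16 (R 4.3.3) fitted each strain with the WT, by glmQLFit and glmQLFTest after TMM scaling and filterByExpr (count of 10, total of 15), and all 18 libraries in 1 fit for strain pairs. The thresholds for a call (1 for the absolute log2 fold change, 0.05 for the adjusted p) are those the study used with DESeq2. The SE is the size of the log2 fold change divided by the square root of F. Log2 CPM used a prior count of 2. Alternatives were DESeq2 1.42.0, library totals, no filter, 1 fit over all 18 libraries, a fit of each pair, a replicate block, replicates 1 and 3, and each library left out. The alternative without the library highest on the first principal component was added after seeing the data.

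The members and lists were chosen with earlier results of these data known. Named are all members, genes inside their interval, up to 4 genes per list (those called in most strains, then by CPM, and 2 by CPM where none was called), and the 5 genes most like each profile. Libraries with the same number counted as pairs if all 3 correlations of their residuals (value minus group mean) exceeded 0.1, which held in 21D.del (0.65 to 0.84) and 82Eb.del (0.65 to 0.84) only. This rests on the data alone, and replicate 2 stood apart in both strains and in the WT. Within each group, libraries differed by more than sampling noise.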

Additional observations from a re-analysis of the deposited data

Results flagged for a closer look

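Eig71Ea was called in opposite directions in 2 strains under the same contrast with the WT, higher in 95Cb.del (log2 fold change 1.59) and lower in 95Cc.del (-2.81). The difference between the 2 strains, tested in the fit over all 18 libraries, was 4.44 on the log2 scale (SE 0.49, edgeR adjusted p = 1.54e-05), with all 3 libraries of 95Cb.del above and all 3 of 95Cc.del below the WT libraries. It stayed past both thresholds under all 10 alternatives, between 4.29 and 4.68. Eig71Ea was picked for its opposite calls against the WT in these same libraries, so this test and its alternatives add no support.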

How the results depend on the processing

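Against the WT, 369 of the 416 values under the alternatives kept their direction and their side of the threshold, 29 passed it in addition, 4 lost it and 14 changed sign. Among the 403 values of the strain pairs, 296 kept the call and 107 lost it, with no change of sign. The cause was not tested where none is given.

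DESeq2 called 2 members higher in 21D.del (Eig71Ed, Eig71Ee), 1 higher (Eig71Ed) and 1 lower (Eig71Eb) in 82Eb.del. One fit over all 18 libraries called 3 higher in 21D.del (Eig71Ec, Eig71Ed, Eig71Ee), 1 higher and 1 lower in 82Eb.del. Replicates 1 and 3 alone, and leaving out the library highest on the first principal component (chosen after seeing the data, and the same libraries in these 2 strains), each called 1 higher in 21D.del (Eig71Ee) and 2 lower in 82Eb.del (Eig71Ea, Eig71Eb). In 95Cb.del, 6 were called higher by DESeq2 (Eig71Ee and Eig71Eg added), 5 in one fit over all 18 libraries (Eig71Eg added), 5 with replicates 1 and 3 (Eig71Ee added) and 5 without the library highest on the component (Eig71Eb added). A fit of each strain pair called 19 members in place of 36, and leaving out each replicate number gave 6 to 35. Without replicate 1 or 3, fewer genes of the whole table were called too in each strain pair.

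The replicate block called 1 higher in 21D.del (Eig71Ee) and 1 lower in 82Eb.del (Eig71Eb). In the strains where numbers do not pair the libraries, it left 0 of 1 lower in 95Ca.del, 2 of 4 higher in 95Cb.del (Eig71Ec, Eig71Ef) and 1 of 2 lower in 95Cc.del (Eig71Ea), where the members lost had adjusted p between 0.0509 and 0.0677 (edgeR). It changed no other call of a member against the WT.

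The values that changed sign were all uncalled. With single libraries left out, Eig71Eb in 21D.del lay between -0.24 and 0.48, Eig71Eg in 21D.del between -0.065 and 0.63, CG43083 in 21D.del between -0.59 and 0.32, and Eig71Eg in 95Cc.del between -0.35 and 0.28. In 21D.del, Eig71Eg was at -0.081 and CG43083 at -0.32 with replicates 1 and 3, which are also the libraries kept without the one highest on the component, and CG43083 was at -0.050 with the block. In 95Cc.del, Eig71Eg was at 0.17 without the library highest on the component. Leaving out a library changed the number of called members against the WT once, to 5 higher in 95Cb.del without WT replicate 2 (Eig71Ee added). Over all genes, 15 higher and 111 lower calls in 21D.del became 85 and 287 with DESeq2 and 88 and 372 with the block. In 82Eb.del, 91 and 472 became 141 and 640 with DESeq2, 252 and 876 with the block and 268 and 986 with replicates 1 and 3. At these depths Eig71Eh, Eig71Ei and Eig71Ej could not be compared.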
